A study of Mus musculus with 40 samples.

Results

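The 32 genes described here encode the enzymes of cholesterol synthesis, the proteins that control them, the enzymes of fatty acid synthesis and 1 sterol carrier. They were taken from a list by gene symbol, and all 32 were found among the 23621 rows of the gene table. By role, 6 act in the mevalonate pathway (Hmgcs1, Mvk, Pmvk, Mvd, Idi1, Fdps), 11 lead from farnesyl units to cholesterol (Fdft1, Sqle, Lss, Cyp51, Tm7sf2, Msmo1, Nsdhl, Hsd17b7, Ebp, Sc5d, Dhcr7), 5 control the sterol regulatory element-binding proteins, SREBPs (Insig1, Insig2, Scap, Srebf1, Srebf2), 9 belong to fatty acid synthesis (Acaca, Acacb, Acly, Fasn, Scd1, Scd2, Elovl6, Mid1ip1, Thrsp), and Stard4 encodes a carrier that moves cholesterol between membranes. All 32 passed the filter on low counts in both tissues.

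Messenger RNA was sequenced from glycolytic muscle of C57BL/6 mice at stated Zeitgeber times, where ZT0 is lights on and ZT12 is lights off. The quadriceps came from sedentary mice at ZT0, ZT4, ZT12 and ZT16 and from mice exhausted by a treadmill session that began at ZT0 or at ZT12, taken at once (+0h) or 3 h later (+3h), with 3 libraries in each of the 8 groups. The gastrocnemius came from mice given a running wheel either at night or by day, sampled at ZT4 or ZT16, with 4 libraries in each of the 4 groups. Both wheel schedules include exercise, so this set has no sedentary control. The times recorded for the treadmill libraries were ZT0.5 (+0h) and ZT3.5 (+3h) for the ZT0 session and ZT12.5 and ZT15.5 for the ZT12 session. These are not the exact times of the sedentary groups they are compared with. The age and sex of the mice, how long each mouse ran and how long the wheel schedules lasted were not among the data used here. The p-values below are judged against the spread between these libraries. The library names carry a different number tag for each library, but the labels do not state that each came from a separate mouse.

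Cholesterol is made from acetyl-CoA through mevalonate, squalene and lanosterol. When sterols in the endoplasmic reticulum are low, the escort protein encoded by Scap carries the SREBPs to the Golgi, where they are cut, and the released factors switch on the genes of sterol synthesis (mainly the product of Srebf2) and of fatty acid synthesis (mainly that of Srebf1). The proteins encoded by Insig1 and Insig2 hold Scap back when sterols are plentiful, and Insig1 is itself a target of the SREBPs. Muscle fibres make cholesterol for their membranes, whereas fatty acid synthesis is a large activity of liver and of fat cells.

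The SREBPs bind sterol regulatory elements, often beside a CCAAT box that binds the factor NF-Y, and the 250 bases before the start site of 4 members that moved in these data are shown for that reason. They are RefSeq sequences of GRCm38.p6, read in the direction of transcription. Capitals mark TCACNCCA, a form of the sterol regulatory element, and CCAAT, each on either strand, so that a CCAAT box on the opposite strand reads ATTGG. The windows lie at chr13:119690101-119690350 (plus strand) for Hmgcs1, the synthase that makes HMG-CoA, chr5:4104698-4104947 (minus strand) for Cyp51, lanosterol demethylase, chr5:28071162-28071411 (plus strand) for Insig1, and chr15:82147019-82147268 (plus strand) for Srebf2.
Hmgcs1: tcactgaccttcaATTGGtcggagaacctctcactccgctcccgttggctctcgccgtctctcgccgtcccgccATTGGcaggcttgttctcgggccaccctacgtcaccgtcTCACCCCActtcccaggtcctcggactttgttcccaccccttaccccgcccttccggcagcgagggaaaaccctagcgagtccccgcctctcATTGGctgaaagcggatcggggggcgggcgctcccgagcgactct
Cyp51: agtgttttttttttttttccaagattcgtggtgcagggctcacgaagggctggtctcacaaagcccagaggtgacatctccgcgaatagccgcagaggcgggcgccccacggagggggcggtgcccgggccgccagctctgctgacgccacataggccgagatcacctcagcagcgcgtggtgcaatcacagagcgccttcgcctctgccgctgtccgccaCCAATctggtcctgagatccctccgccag
Insig1: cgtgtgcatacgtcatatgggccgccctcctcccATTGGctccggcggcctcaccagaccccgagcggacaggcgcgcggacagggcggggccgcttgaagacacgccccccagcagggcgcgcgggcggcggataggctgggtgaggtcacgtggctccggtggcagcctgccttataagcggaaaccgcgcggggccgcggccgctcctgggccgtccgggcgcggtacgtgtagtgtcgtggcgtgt
Srebf2: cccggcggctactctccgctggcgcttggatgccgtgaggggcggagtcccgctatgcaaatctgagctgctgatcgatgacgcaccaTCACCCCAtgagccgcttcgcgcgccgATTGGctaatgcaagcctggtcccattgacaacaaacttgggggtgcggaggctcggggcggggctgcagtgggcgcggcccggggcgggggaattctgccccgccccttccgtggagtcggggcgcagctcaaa
The Hmgcs1 window holds TCACCCCA from -137 to -130 relative to the start site and 3 CCAAT boxes, and the Srebf2 window holds TCACCCCA from -162 to -155 with a CCAAT box from -135 to -131. The Cyp51 and Insig1 windows hold 1 CCAAT box each and no TCACNCCA. The promoter table matched 26 of the 32 genes, with 34 promoters in all. TCACNCCA occurred in 3 of these 34 (Hmgcs1, Msmo1 and Srebf2) and in 3.674% of all 32851 promoters of the same length, and CCAAT occurred in 22 of 34 and in 33.85% of all. These matches describe letters in the windows, not binding.

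Summed counts per library were 27352875 to 79491649 for quadriceps and 45010256 to 70033483 for gastrocnemius muscle, and the lowest count of any member in any library was 14, for Sqle. The summed level of 6 fast fibre markers was 119819 to 184936 CPM (the usual scaling of counts to library size) in quadriceps and 138182 to 167061 CPM in gastrocnemius. The 5 slow fibre markers summed to 20.8 to 1763 CPM in quadriceps and to 351 to 1348 CPM in gastrocnemius. Within the sedentary ZT16 group alone they ran from 90.7 to 1763 CPM. The part of slow fibre RNA in the results was not tested. The 10 adipocyte markers summed to 155 to 208 CPM in gastrocnemius but to 233 to 2454 CPM in quadriceps, and the highest value came from sedentary ZT12 replicate 1. In bulk tissue, a change in the number of cells of a type and a change of RNA per cell cannot be told apart.

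Per kilobase of merged exon, the members covered a wide range of levels. In the night wheel ZT4 muscle the lowest means were those of Elovl6 (0.319 CPM per kb), Stard4 (0.407) and Sqle (0.428), and the highest those of Srebf1 (21.0), Scd1 (23.5) and Acacb (39.5). Acacb encodes the acetyl-CoA carboxylase whose product restrains mitochondrial fatty acid uptake, and Scd1 a desaturase that makes monounsaturated fatty acids. In sedentary quadriceps at ZT4 the order at the top was Scd1 (165 CPM per kb), Acacb (42.7) and Fasn (34.9). Squalene epoxidase, the product of Sqle, is a rate-limiting enzyme of the pathway, and its transcript stayed near the bottom of the list in both muscles. Scd1 and Scd2 are close paralogues, and reads they share are divided between them by a model, so each is uncertain as a single gene.

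In mice with the wheel at night, gastrocnemius at ZT16, early in the dark phase, was compared with that at ZT4, early in the light phase. Of the 32 members, 12 were lower at ZT16 and 4 higher, beside 18.8% of the 14523 genes tested that were called in either direction, 9.38% lowered and 9.41% raised. The median log2 fold change was -0.26 over the members and near 0 over all genes. By role, 1 of 6 mevalonate genes fell and 1 rose, 5 of 11 genes from Fdft1 to Dhcr7 fell and 1 rose, 3 of 5 control genes fell, 2 of 9 fatty acid genes fell and 2 rose, and Stard4 fell.

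**Figure D1:**
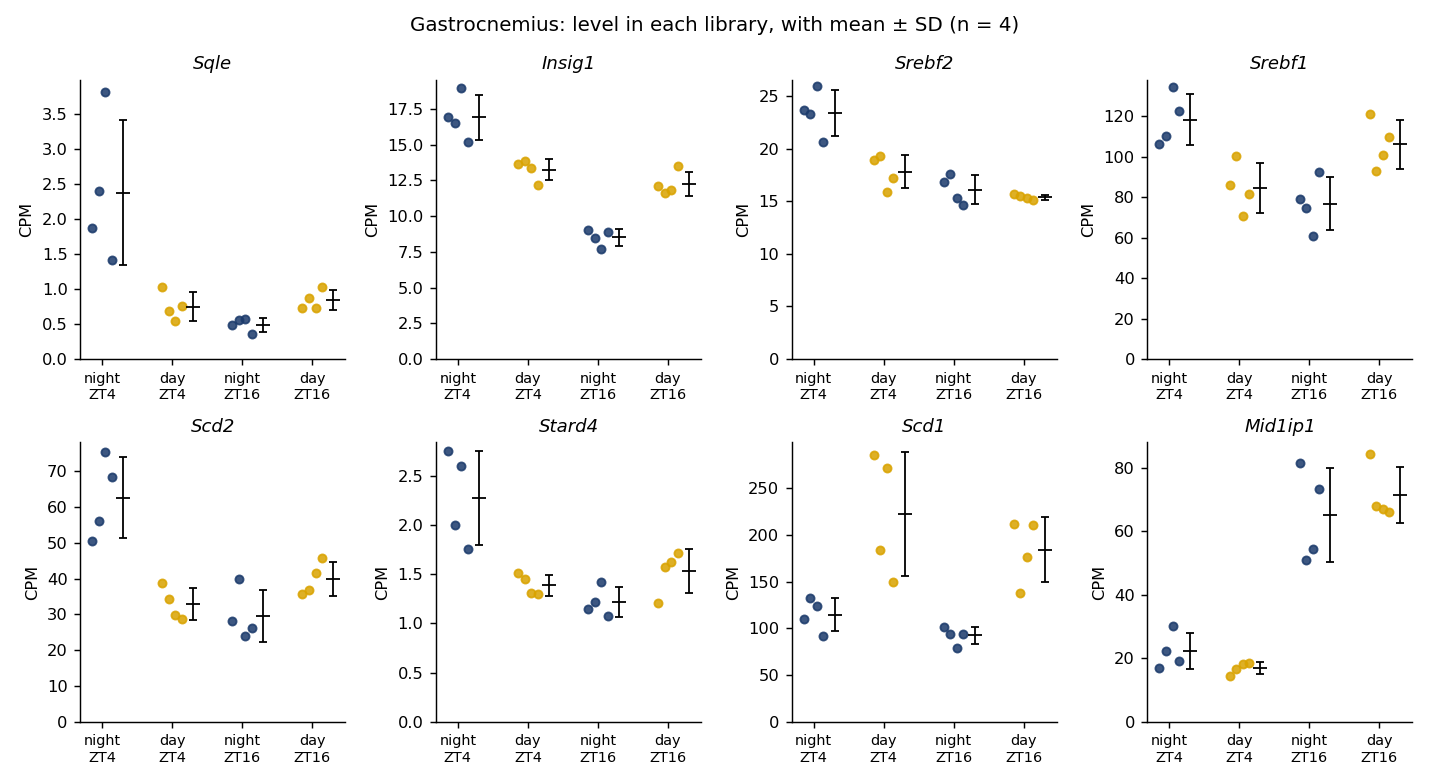
Level in CPM (vertical axis, from 0) of 8 members in each gastrocnemius library (points), with the mean and SD of the 4 libraries beside them, for night wheel (blue) and day wheel (yellow) mice at ZT4 and ZT16. The 4 night wheel ZT4 libraries are the highest for Sqle, Insig1, Srebf2, Scd2 and Stard4, whereas Mid1ip1 is high in all 8 ZT16 libraries.

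Sqle showed the widest difference. Its level was 1.86, 2.398, 3.81 and 1.42 CPM in the night wheel ZT4 libraries and 0.478, 0.552, 0.5698 and 0.354 CPM at ZT16, with no overlap and a log2 fold change of -2.28 (SE 0.28, adjusted p = 1.9e-05). In the day wheel mice it was 1.03, 0.678, 0.536 and 0.7498 CPM at ZT4 and 0.722, 0.866, 0.734 and 1.03 CPM at ZT16. The day wheel groups overlapped, and both lay below every night wheel ZT4 library and, with the exception named next, above the night wheel ZT16 libraries. Day wheel ZT4 replicate 3, at 0.536 CPM, fell within the night wheel ZT16 range.

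Insig1 had the smallest p of all members in this comparison. It read 16.95, 16.5, 18.98 and 15.2 CPM in night wheel muscle at ZT4 and 9.02, 8.44, 7.71 and 8.88 CPM at ZT16, a log2 fold change of -0.99 (SE 0.07, adjusted p = 6.5e-08). In day wheel muscle it read 13.7, 13.8, 13.4 and 12.2 CPM at ZT4 and 12.1, 11.6, 11.8 and 13.5 CPM at ZT16. All 8 day wheel libraries thus lay between the night wheel groups. Its relative Insig2 and Scap were not called in any wheel comparison, with highest-to-lowest ratios within any gastrocnemius group of at most 1.06 and 1.11.

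The genes of the SREBPs themselves fell as well. Srebf2 read 23.7, 23.4, 26.01 and 20.6 CPM at ZT4 and 16.8, 17.6, 15.3 and 14.6 CPM at ZT16 in night wheel mice, with a log2 fold change of -0.54 (SE 0.07, adjusted p = 4.8e-05). Srebf1 read 106, 110.0, 134 and 123 CPM and then 79.1, 74.8, 60.9 and 92.4 CPM, with a log2 fold change of -0.62 (SE 0.13, adjusted p = 0.0048). Neither gene's ZT16 libraries overlapped the ZT4 libraries.

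Among the other enzymes of the sterol pathway the differences were smaller. Hmgcs1 read 29.3, 30.2, 32.7 and 27.6 CPM at ZT4 and 25.4, 26.3, 24.1 and 26.1 CPM at ZT16, with a log2 fold change of -0.23 (SE 0.06, adjusted p = 0.0060). Cyp51 read 5.18, 5.36, 6.64 and 4.88 CPM and 3.79, 4.78, 4.03 and 3.097 CPM, with a log2 fold change of -0.49 (SE 0.12, adjusted p = 0.0069). Both genes were lower at ZT16 in every library. Sc5d, a late desaturase of the pathway, fell by 0.24 on the log2 scale. Lss, lanosterol synthase, fell by 0.31 and Dhcr7, the last reductase, by 0.29; when 1 of the 8 libraries was left out, Lss lost its call in 4 of 8 refits and Dhcr7 in 7 of 8. Idi1, the isopentenyl diphosphate isomerase, was not called: it read 8.48, 9.59, 11.3 and 7.12 CPM at ZT4 and 7.01, 8.26, 7.71 and 6.93 CPM at ZT16, and its groups overlapped.

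A pair of pathway genes went the other way. Mvd, mevalonate diphosphate decarboxylase, read 6.44, 7.74, 7.28 and 6.37 CPM at ZT4 and 10.03, 16.3, 12.6 and 7.89 CPM at ZT16, with a log2 fold change of 0.75 (SE 0.17, adjusted p = 0.0062). Fdft1, squalene synthase, read 66.03, 68.1, 74.7 and 68.1 CPM and 86.2, 83.99, 90.1 and 84.7 CPM, with a log2 fold change of 0.32 (SE 0.05, adjusted p = 0.00027). Both were higher in all 4 ZT16 libraries than in any ZT4 library.

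In fatty acid synthesis, Scd2 followed the sterol genes. It read 50.5, 56.1, 75.4 and 68.2 CPM at ZT4 and 28.2, 39.9, 23.9 and 26.1 CPM at ZT16, with a log2 fold change of -1.08 (SE 0.17, adjusted p = 0.00063), and the groups did not overlap. Mid1ip1, whose product promotes the polymerization of acetyl-CoA carboxylase, did the reverse, from 17.04, 22.4, 30.01 and 19.2 CPM to 81.5, 50.95, 54.3 and 73.4 CPM, with a log2 fold change of 1.56 (SE 0.19, adjusted p = 8.2e-05). Acacb rose from 366, 352, 363 and 441 CPM to 486, 449, 430.1 and 432 CPM, a log2 fold change of 0.24 (SE 0.06, adjusted p = 0.0092), with overlap through night wheel ZT4 replicate 4. Acaca, the cytosolic carboxylase of fatty acid synthesis, read 27.8, 30.6, 36.4 and 33.2 CPM and 25.8, 26.02, 22.7 and 23.6 CPM; its fall of 0.38 lost the call in 7 of 8 refits with 1 library left out. Fasn, fatty acid synthase, was not called and read 43.1, 61.3, 74.8 and 43.03 CPM at ZT4 and 43.7, 54.6, 31.9 and 39.9 CPM at ZT16. Stard4 fell from 2.75, 2.002, 2.596 and 1.75 CPM to 1.14, 1.21, 1.42 and 1.08 CPM, a log2 fold change of -0.90 (SE 0.16, adjusted p = 0.00048).

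In mice with the wheel by day, the same times of day differed little for the sterol genes. Of the 32 members 3 rose and 0 fell, beside 14.9% of all genes called, 7.70% raised and 7.17% lowered, and the median was 0.07. DESeq2 called 6 members, without a share over all genes to set beside them. Mid1ip1 rose from 14.4, 16.7, 18.2 and 18.6 CPM to 84.4, 68.05, 67.1 and 66.1 CPM, with a log2 fold change of 2.07 (SE 0.19, adjusted p = 1.5e-05). Thrsp, a relative of Mid1ip1 that also acts in lipogenesis, rose by 0.81 on the log2 scale. Mvk, mevalonate kinase, read 6.92, 6.92, 6.84 and 6.52 CPM at ZT4 and 8.297, 8.28, 7.43 and 7.99 CPM at ZT16, and its rise of 0.23 lost the call in 7 of 8 refits with 1 library left out. Srebf2 was not called, with 18.9, 19.3, 15.8 and 17.2 CPM at ZT4 and 15.7, 15.49, 15.3 and 15.1 CPM at ZT16, nor was Hmgcs1, with 26.8, 25.9, 28.2 and 25.3 CPM and 26.9, 25.7, 29.3 and 28.5 CPM. All 4 Srebf2 values at ZT16 were lower than those at ZT4.

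Whether the time effect differed between schedules was tested directly, as the difference of the ZT16 minus ZT4 effects. It passed for 11 of 32 members, beside 9.74% of all genes. It was positive, meaning a less negative or more positive effect under day access, for 9 members (4.68% of all genes) and negative for 2 (5.07%). The largest were those of Sqle, 2.45 (SE 0.41, adjusted p = 0.00097), Scd2, 1.36 (SE 0.24, adjusted p = 0.0031), and Stard4, 1.05 (SE 0.22, adjusted p = 0.0057). Srebf1 gave 0.95 (SE 0.19, adjusted p = 0.0061) and Insig1 0.87 (SE 0.10, adjusted p = 3.9e-05), and Cyp51 gave 0.69 (SE 0.17, adjusted p = 0.013). Sc5d gave 0.32 (SE 0.08, adjusted p = 0.011). Hmgcs1 gave 0.29 (SE 0.08, adjusted p = 0.024), which lost its call in 5 of 16 refits with 1 library left out, and Lss gave 0.49 (SE 0.15, adjusted p = 0.045), which lost it in 12 of 16. Mvd gave -0.93 (SE 0.24, adjusted p = 0.023), the opposite sign, and Tm7sf2, a sterol reductase, gave -0.49 (SE 0.15, adjusted p = 0.045), lost in 11 of 16. The difference for Srebf2 was not called. These differences are built in part from the libraries of the night wheel time effect, so they are not independent of it.

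**Figure D2:**
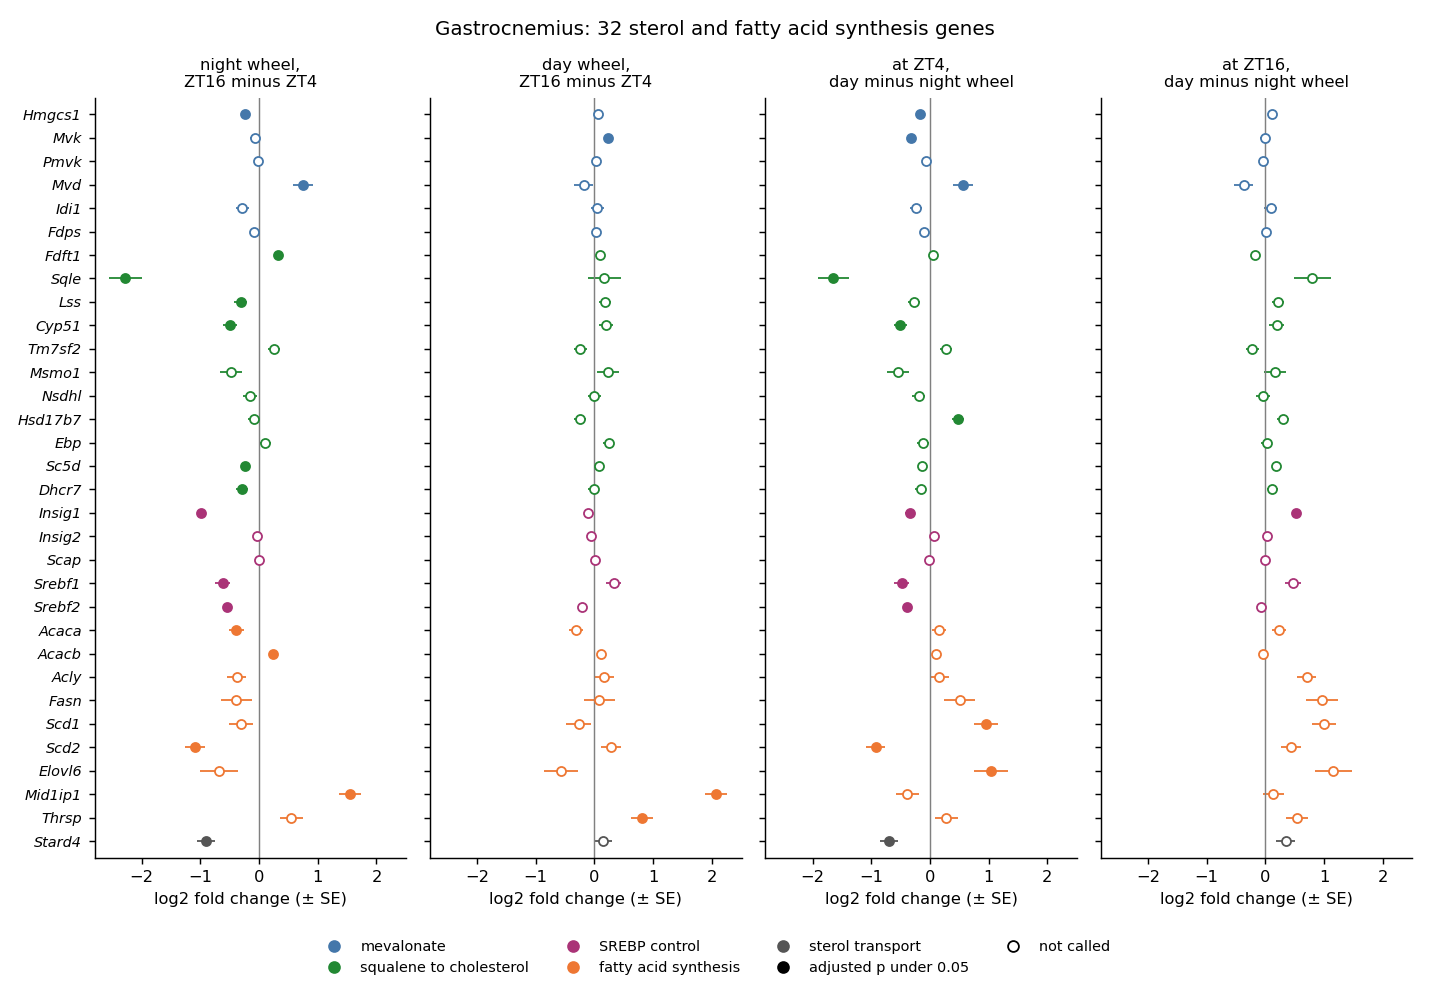
Log2 fold change (horizontal axis, with SE) of the 32 members in 4 gastrocnemius comparisons, coloured by role; filled points have an adjusted p under 0.05. Sqle, Insig1, Srebf1, Srebf2, Scd2 and Stard4 lie left of 0 in the night wheel time effect and the ZT4 panel, and in the day wheel time effect only Mvk, Mid1ip1 and Thrsp are filled.

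At ZT4, day wheel muscle was compared with night wheel muscle directly. This comparison, the night wheel time effect and the difference of time effects share the 4 night wheel ZT4 libraries. Their results are therefore not independent and are set side by side without an overlap. Of the members 9 were lower and 4 higher under day access, beside 13.1% of all genes called, 6.78% lowered and 6.36% raised. Sqle differed by -1.65 (SE 0.26, adjusted p = 0.00063), Scd2 by -0.93 (SE 0.17, adjusted p = 0.0037) and Stard4 by -0.70 (SE 0.15, adjusted p = 0.0061). Stard4 read 1.51, 1.45, 1.303 and 1.29 CPM and Scd2 38.7, 34.2, 29.8 and 28.8 CPM in the day wheel ZT4 libraries, all below the night wheel ZT4 libraries given above. Cyp51, at 3.65, 4.14, 4.100 and 3.64 CPM under day access, differed by -0.50 (SE 0.12, adjusted p = 0.0096).

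Of the control genes, Srebf2 differed by -0.39 (SE 0.07, adjusted p = 0.0020), Insig1 by -0.35 (SE 0.07, adjusted p = 0.0037) and Srebf1 by -0.48 (SE 0.13, adjusted p = 0.029). Srebf1 read 85.9, 101, 70.5 and 81.4 CPM in the day wheel ZT4 libraries, and leaving out 1 library ended its call in 5 of 8 refits. Mvk read 7.93, 9.03, 8.56 and 8.39 CPM under night and 6.92, 6.92, 6.84 and 6.52 CPM under day access, with no overlap and a difference of -0.32 (SE 0.07, adjusted p = 0.0087). Hmgcs1 differed by -0.17 (SE 0.06, adjusted p = 0.045) and lost the call in 6 of 8 refits.

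The 4 members that were higher under day access at ZT4 came from both branches. Scd1 read 110.3, 133, 124 and 91.9 CPM under night and 285, 184, 271 and 149.9 CPM under day access, a difference of 0.96 (SE 0.21, adjusted p = 0.010). Scd1 and Scd2, which encode enzymes of the same reaction, thus differed in opposite directions, within the uncertainty of dividing their shared reads. Elovl6, the elongase of saturated fatty acids, differed by 1.04 (SE 0.30, adjusted p = 0.033) (call lost in 5 of 8 refits with 1 library left out) and Mvd, at 8.94, 10.8, 10.6 and 10.7 CPM under day access, by 0.56 (SE 0.17, adjusted p = 0.041) (lost in 7 of 8). Hsd17b7, a reductase of the sterol pathway, read 7.65, 6.63, 6.34 and 8.39 CPM under night and 11.2, 9.72, 9.695 and 9.78 CPM under day access, a difference of 0.47 (SE 0.10, adjusted p = 0.0056).

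At ZT16 only Insig1 was called, higher under day access by 0.52 (SE 0.07, adjusted p = 0.0030), beside 0.565% of all genes, 0.275% raised and 0.289% lowered. An unadjusted p under 0.05 was reached by 15 members, beside 13.4% of all genes. DESeq2 called 6 members and a fit of these 8 libraries alone called 4. The shares over all genes under these fits are not given, so their counts cannot be weighed. The groups did not overlap for 9 members that were higher and 1 that was lower under day access, beside 6.67% of all genes in either direction. Fasn read 43.7, 54.6, 31.9 and 39.9 CPM under night and 91.4, 68.4, 78.4 and 94.4 CPM under day access, with no overlap and a log2 difference of 0.97 (SE 0.27, adjusted p = 0.13). Scd1 read 102, 94.3, 79.2 and 94.4 CPM and 212, 138, 176 and 211 CPM, with no overlap and a difference of 1.00 (SE 0.21, adjusted p = 0.055). Neither passed the threshold over all genes.

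At ZT16 Srebf1 read 121, 93.1, 101 and 109 CPM, which overlapped the night wheel ZT4 libraries. In the same libraries Scd2 read 35.6, 36.7, 41.5 and 45.8 CPM, Stard4 1.204, 1.57, 1.62 and 1.71 CPM and Cyp51 4.38, 4.39, 4.17 and 4.902 CPM. For Scd2, Stard4 and Cyp51, all of these values but 1 of Cyp51 lay below every night wheel ZT4 library. Fdft1 read 67.01, 69.9, 78.5 and 73.3 CPM at ZT4 and 80.9, 78.9, 74.6 and 72.1 CPM at ZT16, and Mvd 9.94, 8.97, 9.25 and 7.94 CPM at ZT16. Mvk read 6.88, 8.84, 7.9997 and 8.51 CPM in night wheel ZT16 muscle. Idi1 read 8.05, 7.05, 8.49 and 7.29 CPM at ZT4 and 8.21, 8.58, 7.32 and 7.79 CPM at ZT16. The Idi1 groups overlapped in all 4 wheel comparisons. Acaca read 36.6, 30.5, 46.5 and 29.6 CPM and 27.5, 27.8, 30.5 and 29.1 CPM, Acacb 385, 402, 406 and 433 CPM and 429, 450.1, 442 and 426 CPM, and Fasn 105, 62.98, 98.4 and 48.5 CPM at ZT4. None of these 3 was called in a day wheel comparison.

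Markers of other cells moved with the night wheel ZT4 libraries. The 7 Schwann cell markers summed to 65.8 to 95.5 CPM there and to 47.3 to 83.7 CPM in the other 12 libraries, the 5 endothelial markers to 231 to 245 CPM against 175 to 222 CPM, and the 5 fibroblast markers to 840 to 1160 CPM against 602 to 877 CPM. The Schwann cell gene Mbp had a log2 difference of -0.59 (SE 0.20, adjusted p = 0.062) between ZT16 and ZT4 under night access. With the Schwann cell score as a covariate, 14 of the 16 members called for that time effect were still called, 9 of the 13 for day against night access at ZT4, and 10 of the 11 for the difference of time effects. The 5 macrophage markers summed to 52.2 to 64.7 CPM in night wheel ZT4 muscle against 30.4 to 54.5 CPM, and the 3 satellite cell markers to 23.8 to 26.8 CPM against 18.6 to 24.002 CPM. The part of endothelial, fibroblast, macrophage and satellite cell RNA in these results was not tested. Adipocyte markers summed to 168 to 204 CPM in the night wheel ZT4 libraries and to 155 to 208 CPM in the other 12.

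Of 32 further genes of lipid metabolism, listed for their place around the pathway, 5 rose and 2 fell between ZT4 and ZT16 under night access and 8 rose and 0 fell under day access, beside 18.8% and 14.9% of all genes called in either direction. Fads1, a desaturase of polyunsaturated fatty acids, read 8.78, 9.95, 12.02 and 9.04 CPM at ZT4 and 5.72, 5.55, 4.95 and 5.95 CPM at ZT16 under night access, with a log2 fold change of -0.84 (SE 0.10, adjusted p = 1.0e-05), and its partner Fads2 gave -0.86 (SE 0.24, adjusted p = 0.018). The difference of time effects was 0.89 (SE 0.14, adjusted p = 0.00065) for Fads1, 1.44 (SE 0.35, adjusted p = 0.014) for Fads2 and 0.56 (SE 0.10, adjusted p = 0.0018) for Mylip. Other genes rose at ZT16 under both schedules. Abcg1, a cholesterol exporter under the control of liver X receptors, rose from 1.257, 1.397, 1.34 and 1.11 CPM to 2.58, 3.66, 2.63 and 3.28 CPM under night access (adjusted p = 5.0e-06) and by 0.96 (SE 0.14, adjusted p = 0.00013) on the log2 scale under day access. Acat2, the thiolase that supplies acetoacetyl-CoA, rose by 0.71 under night and 0.78 under day access, Dgat2, which makes triglyceride, by 1.59 and 0.79, and Rnf145, a ubiquitin ligase of the endoplasmic reticulum, by 0.40 and 0.69. Under day access Mylip, a ubiquitin ligase induced through liver X receptors, rose by 0.39 and Agpat2, an acyltransferase of triglyceride synthesis, by 0.51. At ZT4, 4 of these 32 genes were lower under day access, Fads1 (-0.67, SE 0.10, adjusted p = 0.00029), Fads2 (-1.09, SE 0.24, adjusted p = 0.0074), Mylip (-0.40, SE 0.07, adjusted p = 0.0018) and the liver X receptor gene Nr1h2 (-0.19, SE 0.06, adjusted p = 0.033), and 1 was higher, Aacs (0.58, SE 0.15, adjusted p = 0.019), beside 13.1% of all genes called. None of the 32 was called by edgeR at ZT16; 9 had an unadjusted p under 0.05, as did 13.4% of all genes.

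Sedentary quadriceps, sampled at 4 times of day, showed differences in 5 of the 32 members by an F test over the 4 groups, beside 17.1% of all 15097 genes tested. They were Srebf2 (adjusted p = 1.6e-06), Mid1ip1 (adjusted p = 7.8e-05), Stard4 (adjusted p = 0.0062), Fdft1 (adjusted p = 0.0079) and Acacb (adjusted p = 0.046), which lost its call in 8 of 12 refits with 1 library left out. Srebf2 read 20.9, 25.1 and 22.8 CPM at ZT0, 23.5, 24.5 and 22.8 CPM at ZT4, 14.6, 14.4 and 14.3 CPM at ZT12 and 17.2, 17.6 and 16.1 CPM at ZT16. All 6 libraries of the light phase times ZT0 and ZT4 were above all 6 of ZT12 and ZT16.

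Between ZT0 and ZT12, 3 members rose and 1 fell, beside 16.1% of all genes called, 7.58% raised and 8.56% lowered. Srebf2 fell by 0.67 on the log2 scale (SE 0.07, adjusted p = 3.5e-06). Endothelial markers were lower at ZT12 too, with sums of 238 to 288 CPM at ZT0 and 157 to 208 CPM at ZT12, and 4 of the 5 passed the test. Fast fibre markers summed to 119819 to 135729 CPM and then to 142735 to 160727 CPM, and adipocyte markers to 233 to 672 CPM and then to 468 to 2454 CPM. The part of endothelial and fast fibre RNA in these changes was not tested. Mid1ip1 rose from 28.6, 19.1 and 27.8 CPM to 53.3, 65.95 and 62.6 CPM, a log2 fold change of 1.27 (SE 0.24, adjusted p = 0.0022). Fdft1 rose from 69.6, 59.01 and 59.4 CPM to 86.3, 93.3 and 80.6 CPM, a log2 fold change of 0.47 (SE 0.10, adjusted p = 0.0045), and Acacb from 379, 379 and 376 CPM to 536, 508 and 463 CPM, a log2 fold change of 0.41 (SE 0.13, adjusted p = 0.032). The Fdft1 and Acacb groups did not overlap. Acacb lost its call in 5 of 6 refits with 1 library left out, and neither Fdft1 nor Acacb was called once the adipocyte score entered the fit. Of the further lipid genes 3 rose over this interval, Gpam, a glycerol phosphate acyltransferase (0.75, SE 0.11, adjusted p = 0.00015), Abca1 (0.90, SE 0.18, adjusted p = 0.0025) and Mylip (0.50, SE 0.15, adjusted p = 0.033). These 3 also passed the F test, as did Abcg1 (adjusted p = 0.00015) and Npc1 (adjusted p = 0.018).

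Between ZT4 and ZT16, 1 member rose and 2 fell, beside 7.16% of all genes called, 3.49% raised and 3.67% lowered. Srebf2 fell by 0.47 (SE 0.07, adjusted p = 0.00030). Stard4 read 2.94, 2.34 and 2.17 CPM at ZT4 and 1.24, 1.51 and 1.37 CPM at ZT16, a log2 fold change of -0.86 (SE 0.19, adjusted p = 0.0066); without sedentary ZT4 replicate 1 it was -0.72 (adjusted p = 0.053). Mid1ip1 read 17.2, 20.3 and 18.2 CPM and 65.1, 84.8 and 50.9 CPM, a log2 fold change of 1.85 (SE 0.25, adjusted p = 0.00018). The night wheel values for the same interval in gastrocnemius, from other libraries, were -0.54 for Srebf2, -0.90 for Stard4 and 1.56 for Mid1ip1. The groups did not overlap for 15 members that were lower and 4 that were higher at ZT16, beside 26.3% of all genes in either direction. A fit of these 6 libraries alone called 9 members, for which no share over all genes is given. Satellite cell markers summed to 21.2 to 24.4 CPM at ZT4 and to 19.1 to 21.2 CPM at ZT16, and their part was not tested. Sqle was among those not called, with 2.05, 1.96 and 2.72 CPM at ZT4 and 1.22, 1.04 and 1.57 CPM at ZT16. Of the further lipid genes, Abcg1 rose (1.36, SE 0.17, adjusted p = 5.3e-05), as did Rnf145 (0.53, SE 0.15, adjusted p = 0.034), and Npc1, the lysosomal cholesterol exporter, fell (-0.77, SE 0.17, adjusted p = 0.0099).

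**Figure D3:**
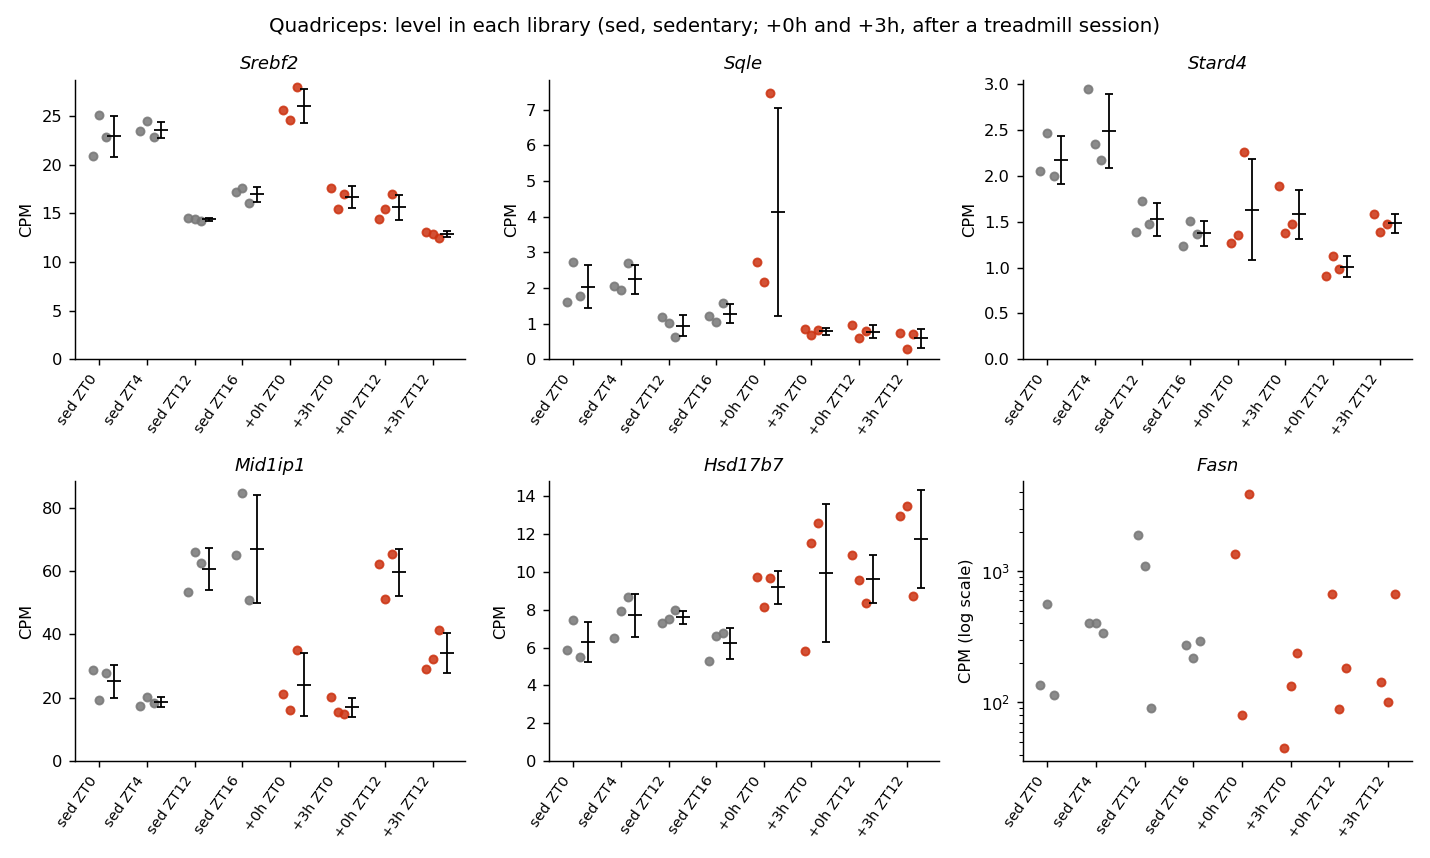
Level in CPM of 6 members in each quadriceps library (points; mean and SD of 3 libraries beside them, not drawn for Fasn, whose axis is logarithmic) for sedentary (grey) and treadmill (red) groups. Srebf2 and Sqle are lower in the +3h ZT0 libraries than in sedentary ZT4 libraries, and Fasn spreads from 80.5 to 3863 CPM within the +0h ZT0 group.

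Muscle taken 3 h after the ZT0 session was compared with sedentary ZT4 muscle, the closest sedentary time. Of the 32 members 4 fell and 0 rose, beside 13.6% of all genes called, 6.63% lowered and 6.96% raised. Sqle read 0.848, 0.682 and 0.8098 CPM after the run and 2.05, 1.96 and 2.72 CPM in sedentary mice, a log2 fold change of -1.53 (SE 0.41, adjusted p = 0.016). Srebf2 read 17.6, 15.48 and 17.03 CPM after the run, below all 3 sedentary ZT4 libraries, a log2 fold change of -0.50 (SE 0.07, adjusted p = 9.9e-05). Msmo1, the sterol methyl oxidase, read 2.43, 2.27 and 2.13 CPM and 3.77, 4.14 and 4.06 CPM, a log2 fold change of -0.81 (SE 0.22, adjusted p = 0.019), and Stard4 read 1.89, 1.38 and 1.47 CPM, a log2 fold change of -0.67 (SE 0.19, adjusted p = 0.022). The groups overlapped for none of these 4. With 1 library left out, Msmo1 lost its call in 4 of 6 refits and Stard4 in 3 of 6. The sedentary ZT4 libraries also served the ZT16 minus ZT4 comparison above. The falls of Srebf2 and Stard4 in both comparisons are therefore not independent.

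The +3h groups lay entirely below the sedentary ZT4 groups for 20 of 32 members and entirely above for 0, beside 15.8% of all genes entirely below. Hmgcs1, with 26.96, 27.5 and 27.8 CPM against 33.3, 33.6 and 32.6 CPM, Idi1, with 6.74, 6.56 and 6.86 CPM against 9.09, 9.04 and 9.305 CPM, and Cyp51, with 4.100, 4.24 and 4.24 CPM against 5.37, 6.56 and 5.59 CPM, were of this kind without a call. The count of 4 calls was 1 without treadmill +3h ZT0 replicate 2 (Srebf2), 2 without its replicate 3 and 2 without sedentary ZT4 replicate 3. Sqle was -1.43 without treadmill +3h ZT0 replicate 2 (adjusted p = 0.069) and -1.37 without sedentary ZT4 replicate 3 (adjusted p = 0.063). The adipocyte markers had a median log2 fold change of 0.16 here and the Schwann cell markers one of -0.55. The Schwann cell markers summed to 36.6 to 67.3 CPM after the run and to 68.6 to 77.1 CPM in sedentary mice. The part of Schwann cell RNA in this result was not tested. Adding the adipocyte score to the fit gave 6 called members, without a share over all genes under that fit. Of the 32 further lipid genes 2 rose and 4 fell, beside 13.6% of all genes called, 6.96% raised and 6.63% lowered. Among them were Npc1 (0.75, SE 0.17, adjusted p = 0.0067), Lpin1, a phosphatidate phosphatase (0.60, SE 0.13, adjusted p = 0.0044), Fads2 (-1.16, SE 0.26, adjusted p = 0.0048), Mylip (-0.65, SE 0.15, adjusted p = 0.0075) and Abca1, a cholesterol exporter (-0.61, SE 0.18, adjusted p = 0.029).

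After the ZT12 session, 3 members were higher and 2 lower at +3h than in sedentary ZT16 muscle, beside 17.2% of all genes called, 8.70% raised and 8.53% lowered. Srebf2 read 13.1, 12.9 and 12.52 CPM, below all 3 sedentary ZT16 libraries, a log2 fold change of -0.40 (SE 0.07, adjusted p = 0.00057). Mid1ip1 read 29.00, 32.2 and 41.3 CPM against 65.1, 84.8 and 50.9 CPM, a log2 fold change of -0.97 (SE 0.24, adjusted p = 0.0093); without sedentary ZT16 replicate 2 it was -0.76 (adjusted p = 0.056). Hsd17b7 read 12.98, 13.5 and 8.74 CPM against 5.28, 6.61 and 6.75 CPM, a log2 fold change of 0.91 (SE 0.22, adjusted p = 0.0062). None of these 3 overlapped between groups. The sedentary ZT16 libraries also served the comparison with sedentary ZT4, in which Srebf2 fell and Mid1ip1 rose, so those results are not independent. Mvk rose by 0.35 on the log2 scale, from 8.39, 9.05 and 8.53 CPM to 10.8, 11.9 and 10.5 CPM, and Pmvk, phosphomevalonate kinase, by 0.78. Pmvk lost its call in 6 of 6 refits with 1 library left out and Mvk in 3 of 6, and the count was 3 without treadmill +3h ZT12 replicate 2 and without any 1 of the 3 sedentary ZT16 libraries. The count of called members was 8 in a fit of these 6 libraries alone and 8 once the adipocyte score entered the fit. Neither count has a share over all genes beside it. Endothelial markers summed to 238 to 255 CPM after the run and to 208 to 233 CPM in sedentary mice, satellite cell markers to 22.1 to 23.8 CPM and 19.1 to 21.2 CPM, and fast fibre markers to 160784 to 182442 CPM and 127703 to 148358 CPM. The part of these cells in the result was not tested. Sqle, at 0.749, 0.281 and 0.721 CPM, was not called. Of the further lipid genes 4 rose and 4 fell, with Npc1 at 1.69 (SE 0.18, adjusted p = 2.7e-06), Lpin1 at 0.78 (SE 0.13, adjusted p = 0.00033), Fads2 at -1.07 (SE 0.26, adjusted p = 0.0066), Rnf145 at -0.63 (SE 0.15, adjusted p = 0.0060) and Mlx, a partner of the carbohydrate-responsive factor ChREBP, at -0.34 (SE 0.10, adjusted p = 0.020).

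The difference between the +3h responses of the 2 sessions passed for 0 of 32 members by edgeR's quasi-likelihood test and by DESeq2, beside 1.59% of all genes. An unadjusted p under 0.05 was reached by 2 members and by 13.0% of all genes. These were Stard4, with a difference (ZT12 session minus ZT0 session) of 0.77 (SE 0.27, adjusted p = 0.17), and Mid1ip1, with -0.83 (SE 0.34, adjusted p = 0.29). For Srebf2 the difference was 0.10 (SE 0.10).

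**Figure D4:**
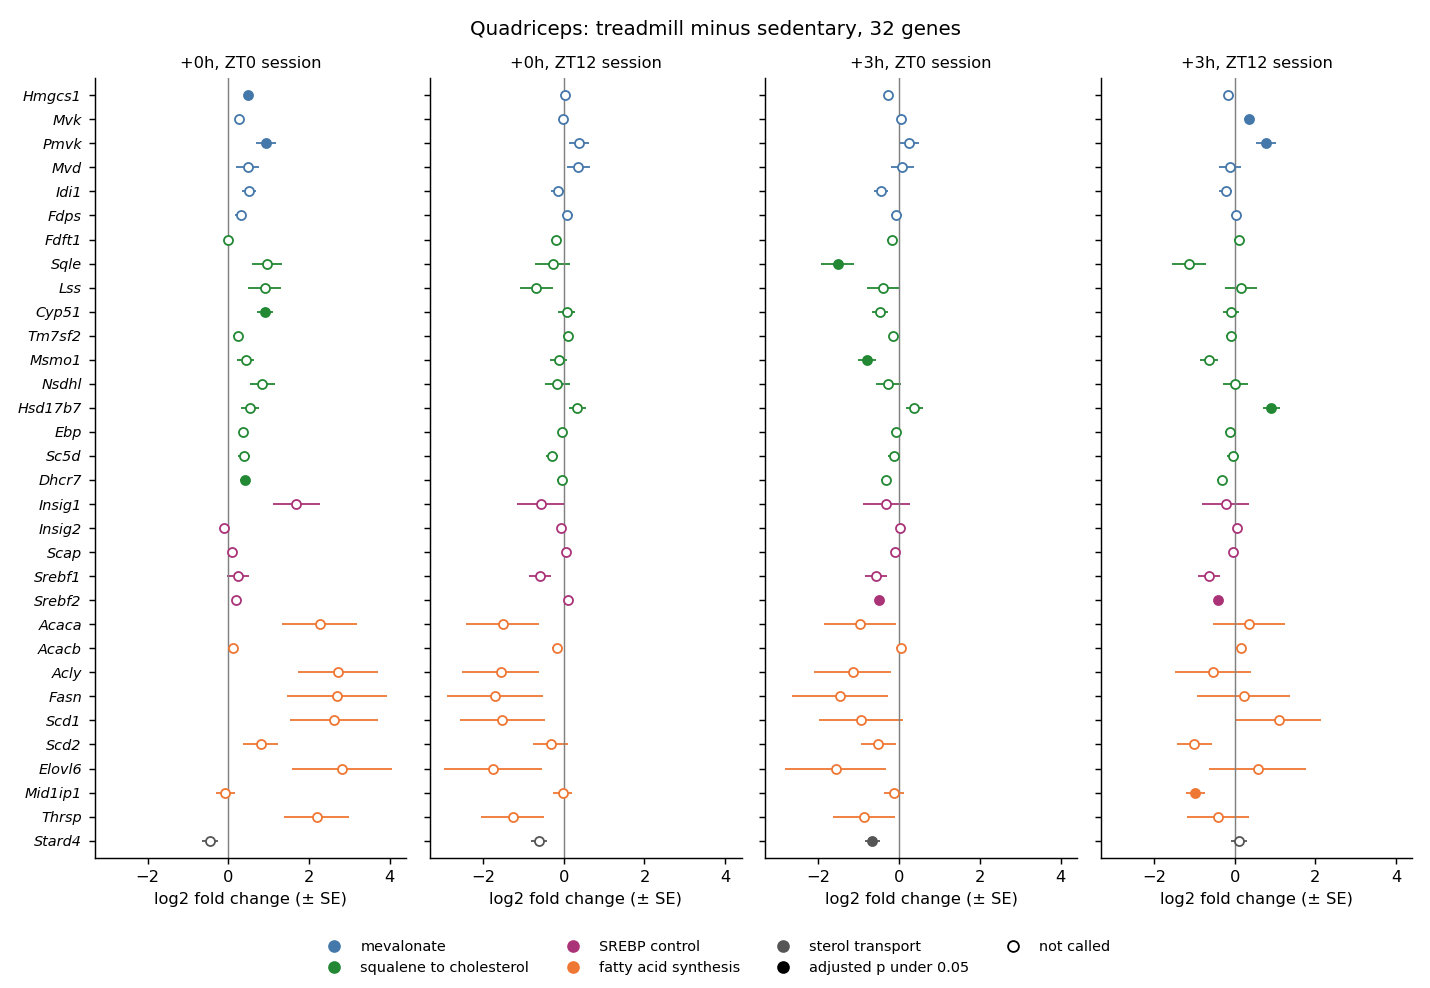
Log2 fold change (horizontal axis, with SE) of the 32 members after treadmill runs against sedentary quadriceps, coloured by role; filled points have an adjusted p under 0.05. Fasn, Scd1, Acaca, Acly, Elovl6 and Thrsp have the widest errors in all 4 panels, and Srebf2 is filled and left of 0 in both +3h panels.

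Directly after the ZT0 session 4 members were higher than in sedentary ZT0 muscle and 0 lower, beside 6.82% of all genes called, 4.29% raised and 2.53% lowered. Cyp51 read 8.66, 6.89 and 15.2 CPM against 4.84, 5.57 and 5.695 CPM, a log2 fold change of 0.92 (SE 0.20, adjusted p = 0.0072), and Hmgcs1 read 45.2, 36.1 and 59.4 CPM against 30.9, 35.96 and 32.4 CPM, a log2 fold change of 0.50 (SE 0.11, adjusted p = 0.0094). Neither overlapped between groups. Pmvk rose by 0.94 and Dhcr7 by 0.41 on the log2 scale, and their calls were lost in 5 and 4 of 6 refits with 1 library left out. The adipocyte markers summed to 1547, 303 and 1852 CPM after the run and to 269.5, 672 and 233 CPM in sedentary ZT0 muscle. Over the 24 quadriceps libraries, deviations from group means were set against those of these markers. Pearson's r was 0.66 for Pmvk, 0.62 for Hmgcs1, 0.54 for Cyp51 and 0.28 for Dhcr7. Endothelial markers summed to 216 to 224 CPM after the run and to 238 to 288 CPM in sedentary mice, macrophage markers to 75.9 to 92.4 CPM and 55.03 to 64.3 CPM, and fast fibre markers to 139215 to 172154 CPM and 119819 to 135729 CPM. Their part in the result was not tested. Adding the adipocyte score to the fit left 0 members called, with Cyp51 at 0.64 (adjusted p = 0.079) and Hmgcs1 at 0.33 (adjusted p = 0.089).

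The count for that comparison rested on single libraries. It was 0 without sedentary ZT0 replicate 1, 2 without its replicate 3, 2 without treadmill +0h ZT0 replicate 1 and 16 without treadmill +0h ZT0 replicate 2. The shares over all genes in these refits are not given. Treadmill +0h ZT0 replicate 2 had the lowest adipocyte marker sum of its group, 303 CPM. That sum lay within the sedentary ZT0 range of 233 to 672 CPM. The count was 0 when only these 6 libraries were fitted and 11 in DESeq2, again without a share over all genes. Treadmill +0h ZT0 replicate 3 had the lowest total of all libraries, 27352875 counts, and uneven lanes of 10327419 and 17025769 counts. It was the highest of its group for Cyp51, Hmgcs1, Insig1, Sqle and Idi1. Without it the log2 fold change was 0.54 for Cyp51 and 0.30 for Hmgcs1, the lowest of 6 refits for each. Insig1 read 64.8, 17.1 and 134 CPM against 15.4, 34.9 and 16.3 CPM and was not called. Sqle, with 2.73, 2.16 and 7.48 CPM against 1.61, 2.73 and 1.79 CPM, and Idi1, with 10.1, 9.28 and 18.03 CPM against 7.73, 9.97 and 8.31 CPM, were not called either. Of the 32 further lipid genes none was called by edgeR; 14 had an unadjusted p under 0.05, as did 22.8% of all genes.

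Directly after the ZT12 session 0 of 32 members passed by edgeR's quasi-likelihood test or by DESeq2, beside 4.60% of all genes. An unadjusted p under 0.05 was reached by 2 members and by 16.9% of all genes. Stard4 read 0.905, 1.13 and 0.984 CPM against 1.39, 1.73 and 1.47 CPM, with a log2 fold change of -0.60 (SE 0.20, adjusted p = 0.098), and its groups did not overlap. Srebf1 read 74.3, 68.6 and 87.4 CPM against 146, 101 and 96.2 CPM, with -0.58 (SE 0.27, adjusted p = 0.29). Of the further lipid genes Mylip fell (-0.66, SE 0.15, adjusted p = 0.015). The difference between the +0h responses of the 2 sessions passed for 0 members and for 0% of all genes in edgeR, and for 0 members in DESeq2. Of the members 17 had an unadjusted p under 0.05, beside 12.7% of all genes, led by Sc5d at -0.69 (SE 0.21, adjusted p = 0.26) and Acly, ATP citrate lyase, at -4.27 (SE 1.37, adjusted p = 0.26). With the adipocyte score in the fit, the Acly difference was 0.13 (adjusted p = 1). Without treadmill +0h ZT0 replicate 2, 7 members passed, and the share over all genes in that refit is not given.

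For the sterol genes, the quadriceps levels not yet given include those of the dark phase. At ZT12 and ZT16 in sedentary mice Hmgcs1 read 32.9, 28.3 and 28.8 CPM and 28.5, 31.1 and 31.4 CPM, and after the ZT12 session 31.6, 30.6 and 30.1 CPM at +0h and 29.5, 25.8 and 26.5 CPM at +3h. Idi1 read 8.99, 8.79 and 6.53 CPM, 7.28, 7.28 and 8.12 CPM, 7.22, 7.56 and 7.13 CPM and 6.61, 6.03 and 6.75 CPM in these 4 groups. Cyp51 read 5.46, 4.22 and 3.46 CPM, 4.75, 5.06 and 5.32 CPM, 4.39, 5.13 and 4.26 CPM and 4.39, 5.05 and 4.85 CPM in them. None of these 3 genes was called in the ZT12 session. Sqle read 1.18, 1.03 and 0.633 CPM in sedentary ZT12 muscle and 0.9600, 0.593 and 0.783 CPM at +0h. Srebf2 read 25.7, 24.6 and 27.99 CPM in the +0h ZT0 group and 14.5, 15.46 and 16.96 CPM in the +0h ZT12 group. Stard4 read 2.05, 2.47 and 1.99 CPM in sedentary ZT0 muscle, 1.27, 1.35 and 2.26 CPM at +0h of that session and 1.58, 1.38 and 1.48 CPM at +3h of the other. Srebf2 and Stard4 were not called at +0h.

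Mvk, mevalonate kinase, spread less within quadriceps groups than Mvd. Mvk read 8.11, 7.55 and 8.59 CPM at ZT0, 8.62, 7.88 and 8.09 CPM at ZT4 and 8.66, 8.75 and 8.87 CPM at ZT12 in sedentary mice. After runs it read 8.66, 8.61 and 12.2 CPM (+0h) and 7.26, 8.98 and 9.25 CPM (+3h) in the ZT0 session and 9.05, 8.27 and 8.65 CPM at +0h in the ZT12 session. Its highest-to-lowest ratio within a group reached 1.41. Mvd read 6.68, 5.76 and 5.59 CPM, 6.99, 5.58 and 5.58 CPM, 4.75, 8.17 and 5.71 CPM and 10.6, 9.75 and 6.25 CPM at the 4 sedentary times. After runs Mvd read 7.51, 5.93 and 11.9 CPM and 8.53, 5.69 and 5.05 CPM in the ZT0 session and 8.75, 6.76 and 8.47 CPM and 6.32, 6.85 and 11.4 CPM in the ZT12 session. Within a group its ratio reached 2.01, and it was not called in quadriceps. Fdft1 read 64.3, 63.6 and 64.95 CPM at ZT4 and 73.04, 83.2 and 69.2 CPM at ZT16, and after runs 59.3, 56.1 and 70.9 CPM, 55.9, 55.2 and 58.1 CPM, 84.4, 61.7 and 80.5 CPM and 75.8, 80.5 and 84.8 CPM, in the order +0h and +3h of the ZT0 session and then of the ZT12 session. No treadmill comparison called it. Mid1ip1 read 21.1, 16.1 and 35.1 CPM and 20.3, 15.6 and 14.8 CPM in the ZT0 session and 62.3, 51.3 and 65.3 CPM at +0h in the ZT12 session. Each of these 3 groups overlapped its sedentary group, without a call.

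The genes of fatty acid synthesis spread widely among quadriceps libraries of the same group. Fasn read 137, 566 and 113 CPM in sedentary mice at ZT0, 405, 401 and 340.4 CPM at ZT4, 1897, 1088 and 90.1 CPM at ZT12 and 273, 219 and 292 CPM at ZT16. After the ZT0 session it read 1347, 80.5 and 3863 CPM at +0h and 44.7, 134 and 237 CPM at +3h, and after the ZT12 session 672, 88.9 and 183 CPM and 143, 100.5 and 669.8 CPM. The spread within the +0h ZT0 group, 48.0-fold from lowest to highest, was wider than any difference between group medians. Scd1 read 2273, 258 and 7213 CPM in that group and 4668, 2754 and 362 CPM in sedentary ZT12 muscle, and Acaca 250.3, 31.9 and 723 CPM and 352, 201 and 35.7 CPM.

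In 7 of the 8 quadriceps groups, 1 library was the highest for all of Fasn, Scd1, Acaca, Acly, Elovl6 and Thrsp. The exception was sedentary ZT16, where Scd1 was highest in replicate 1 and the other 5 genes in replicate 3. The highest-to-lowest ratio within a quadriceps group reached 55.8 for Elovl6, 39.4 for Acly, 27.9 for Scd1, 22.6 for Acaca, 16.3 for Thrsp and 7.85 for Insig1. It was at most 1.15 for Insig2, 1.19 for Scap, 1.20 for Srebf2 and 1.41 for Acacb. Among members the fatty acid enzymes thus varied most between libraries of a group, with Acacb, Mid1ip1 and Scd2 below them. In gastrocnemius the highest ratio of any member was 2.90, for Elovl6.

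Insig1 and Srebf1 also varied between quadriceps libraries of a group. Insig1 read 22.6, 26.6 and 22.3 CPM at ZT4, 46.5, 22.5 and 11.5 CPM at ZT12 and 21.2, 14.2 and 19.7 CPM at ZT16 in sedentary mice. In the +3h ZT0 group it read 14.1, 20.3 and 22.9 CPM, and after the ZT12 session 23.9, 12.1 and 18.01 CPM and 12.3, 12.6 and 22.3 CPM at +0h and +3h. Srebf1 read 84.9, 129 and 82.5 CPM at ZT0, 113, 121 and 105 CPM at ZT4 and 73.4, 95.97 and 81.1 CPM at ZT16. After runs it read 115, 66.5 and 168 CPM and 53.3, 83.04 and 91.2 CPM in the ZT0 session and 50.5, 51.4 and 60.7 CPM at +3h of the ZT12 session. Neither gene was called in quadriceps. Scd2 read 52.8, 88.7 and 67.8 CPM, 64.96, 76.7 and 76.1 CPM, 46.7, 37.2 and 33.97 CPM and 50.3, 50.8 and 46.8 CPM at the 4 sedentary times. After runs Scd2 read 95.3, 41.9 and 228 CPM and 30.2, 49.6 and 72.7 CPM in the ZT0 session and 23.3, 42.4 and 28.3 CPM and 26.2, 25.97 and 21.96 CPM in the ZT12 session. At +3h of the ZT12 session all 3 values lay below the sedentary ZT16 values, without a call.

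Scd1 and Acaca, the desaturase and the cytosolic carboxylase, ranked the libraries of a group alike in several groups. Scd1 read 347, 1009 and 228 CPM at ZT0, 935, 876 and 608 CPM at ZT4 and 889.9, 337 and 537 CPM at ZT16 in sedentary mice. In the +3h ZT0 group Scd1 read 298, 461 and 499.98 CPM, and after the ZT12 session 1945, 267 and 507 CPM at +0h and 599, 481 and 2678 CPM at +3h. Acaca read 47.4, 122 and 38.6 CPM, 99.3, 97.4 and 86.6 CPM, 57.9, 50.6 and 61.8 CPM, 27.6, 48.8 and 67.9 CPM, 127, 31.1 and 48.3 CPM and 41.7, 39.6 and 136 CPM in the same 6 groups, in that order. For both genes the highest library was replicate 2 in the sedentary ZT0 group, replicate 1 in the +0h ZT12 group and replicate 3 in the +3h ZT12 group. Acacb, by contrast, read 378, 451 and 404 CPM at ZT4 and 461, 579.9 and 457 CPM at ZT16, 379.6, 355 and 499 CPM and 368, 442 and 459 CPM in the ZT0 session, and 534, 398 and 420.1 CPM and 540.2, 570.1 and 558 CPM in the ZT12 session. Of the 32 members 8 were called in none of the 14 comparisons: Idi1, Fdps, Nsdhl, Ebp, Insig2, Scap, Acly and Fasn.

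The deviations of libraries from their group went with the level of fat cell markers. Over the 24 quadriceps libraries, the deviation of each library from its group mean on the log2 scale was set against that of the mean of 10 adipocyte markers, as a description. Libraries share their sequencing depth and composition across genes. Pearson's r was 0.96 for Scd1, 0.92 for Insig1, Acaca and Thrsp, 0.91 for Fasn (Spearman's rho 0.88; r = 0.87 without the 2 libraries farthest from the median), 0.90 for Elovl6 and 0.88 for Acly. It was 0.84 for Nsdhl, a sterol dehydrogenase, and 0.70 for Sqle, but 0.22 for Srebf2, 0.21 for Mid1ip1, 0.18 for Stard4 and -0.44 for Insig2. Over the 16 gastrocnemius libraries, where the marker sum varied little, the order differed. There r was 0.66 for Fasn, 0.63 for Thrsp, 0.61 for Scd1, 0.48 for Insig1, 0.33 for Acly, 0.25 for Elovl6 and 0.14 for Acaca, and it was 0.61 for Srebf2, -0.32 for Mid1ip1, -0.55 for Acacb and -0.57 for Scap. Adipoq, the adipocyte hormone adiponectin, read 11.1 to 207 CPM in quadriceps and 4.05 to 10.3 CPM in gastrocnemius.

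**Figure D5:**
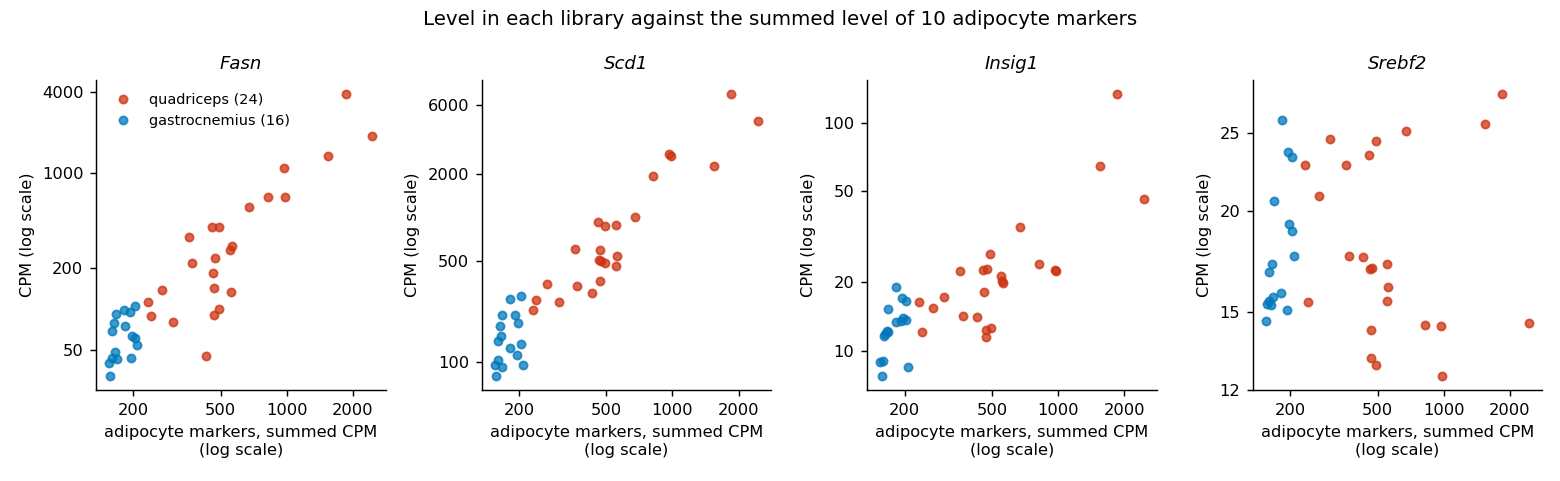
Level in CPM of Fasn, Scd1, Insig1 and Srebf2 (vertical axes, logarithmic) against the summed CPM of 10 adipocyte markers (horizontal axes, logarithmic) in 24 quadriceps (red) and 16 gastrocnemius (blue) libraries. Fasn, Scd1 and Insig1 climb with the marker sum across quadriceps libraries, whereas Srebf2 has no such slope and gastrocnemius libraries keep to 155 to 208 CPM of markers.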

How the data were processed

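Skeletal muscle mRNA was sequenced on 2 lanes per library in 40 libraries of 12 groups. Per the labels' protocols, RNA was extracted with TRI-Reagent and RNeasy columns and libraries were made with a stranded TruSeq mRNA kit. The values are estimated counts per gene and lane, which the authors deposited. The tools named in the submitters' processing notes are kallisto 0.46.2, DESeq2 1.26.0 and bcl2fastq 2.20.0.422, and the builds are GRCm38.p6 and mm10. The annotation and the step from transcripts to genes are not given in the sources used here. kallisto divides reads that fit several transcripts by a model.

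Lanes were summed and rounded here. Identifiers were matched to symbols in a RefSeq gene table of GRCm38.p6 (23614 of 23621). Merged exon lengths came from GENCODE. Genes were tested with edgeR 4.0.16 (limma 3.58.1, R 4.3.3; TMM factors, robust quasi-likelihood fit, filter with a minimum count of 10), in 1 fit per tissue, with Benjamini-Hochberg adjustment over all genes tested (15097 in quadriceps, 14523 in gastrocnemius). Fold changes are log2 values, a member is called at an adjusted p under 0.05, and levels are CPM from TMM-scaled library sizes. Total counts were 27352875 to 79491649 per library. In data simulated for the +3h comparison of the ZT0 session over 15097 genes, the fit recovered 74% of genes changed by 1 on the log2 scale and 92% of those changed by 2. No pair of libraries in a group agreed within sampling noise (lowest chi-square per degree of freedom 6.18).

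The members, the lists of further lipid genes and markers and the comparisons were chosen with earlier results of these data known. The text accounts for all members and names each one called, with values in every library for the main genes of each role and for genes called in 3 or more comparisons. Alternatives were DESeq2 1.42.0, RLE factors, no filter on low counts, a replicate block, the adipocyte score as a covariate, only the groups compared, and each library left out in turn. The Schwann cell score as a covariate was added after seeing the data, and only for gastrocnemius. Counts of called members under these alternatives are given without shares over all genes. The shares printed are those of the main fit. Replicate numbers were not taken to pair libraries across groups, since the labels do not state a pairing.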

Additional observations from a re-analysis of the deposited data

Results flagged for a closer look

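The difference between day and night wheel access in the ZT16 minus ZT4 effect passed the test for 11 members, by an interaction term in edgeR. The differences, as log2 values of day wheel minus night wheel, were 2.45 for Sqle, 1.36 for Scd2, 1.05 for Stard4, 0.95 for Srebf1, 0.87 for Insig1, 0.69 for Cyp51, 0.49 for Lss, 0.32 for Sc5d, 0.29 for Hmgcs1, -0.49 for Tm7sf2 and -0.93 for Mvd. The night wheel ZT4 libraries, high for Sqle, Scd2 and Stard4, also had higher mean sums of Schwann cell, endothelial, fibroblast, macrophage and satellite cell markers.

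In groups of 4 libraries, 1 library stood apart from the other 3 for 8 of the 128 combinations of member and group tested, and chance alone sets about 1 in 20 apart. Day wheel ZT4 replicate 1 was low for Mvd, at 8.94 CPM, and high for Hsd17b7, at 11.2 CPM. Night wheel ZT4 replicate 3 was apart for Nsdhl, at 6.75 CPM, and for Acly, at 31.4 CPM, and replicate 4 of that group for Acacb, at 441 CPM. Day wheel ZT16 replicate 1 was apart for Nsdhl, at 5.71 CPM, and for Mid1ip1, at 84.4 CPM, and replicate 4 for Scap, at 23.2 CPM.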

How the results depend on the processing

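RLE factors and no filter on low counts left the number of called members within 1.5 times the reported one in all 14 comparisons. For single genes, RLE factors left all 75 results followed here the same. Without the filter 65 stayed the same and 10 lost their call. With the adipocyte score as a covariate, the count became 0 for +0h against sedentary muscle at ZT0, 8 for +3h against sedentary ZT16 muscle and 1 for the difference of the +3h responses. With only the groups compared in the fit, these counts were 0 for +0h at ZT0, 8 for +3h against ZT16, 9 for sedentary ZT16 against ZT4 and 4 for day against night wheel at ZT16. DESeq2 called 11 at +0h in the ZT0 session, 6 for day against night wheel at ZT16 and 6 for day wheel ZT16 against ZT4. With the Schwann cell score as a covariate, 2 members were called for day against night wheel at ZT16. The counts under these alternatives are given without shares over all genes. The +0h difference between sessions for Acly, -4.27, turned to 0.13 (adjusted p = 1) with the adipocyte score as a covariate.

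A replicate block was fitted although the labels do not state that replicate numbers pair the libraries. Correlations of same-numbered libraries ran from -0.47 to 0.36 in quadriceps, where 8 of 24 libraries correlated best with their own number. They ran from -0.14 to 0.15 in gastrocnemius, where 10 of 16 did (a hint from the data, not the design). The best match was sought among libraries of other groups, which carry 3 numbers in quadriceps and 4 in gastrocnemius. These counts were not tested against chance. With the block, 2 members were called for day against night wheel at ZT16 in place of 1, and the counts of the other comparisons stayed within 1.5 times. Of the results for single genes, 68 stayed the same with the block and 7 lost their call.

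With 1 library left out at a time, counts ran from 0 to 16 for +0h at ZT0, 0 to 0 for +0h at ZT12, 1 to 5 for +3h against ZT4, 3 to 5 for +3h against ZT16, 0 to 7 for the +0h difference of sessions, 0 to 0 for the +3h difference, 4 to 5 for the sedentary groups, 3 to 4 for ZT12 against ZT0, 2 to 3 for ZT16 against ZT4, 10 to 13 for day against night wheel at ZT4, 1 to 1 at ZT16, 13 to 16 for the night wheel time effect, 2 to 4 for the day wheel one and 8 to 13 for their difference.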
